A study of Drosophila melanogaster with 4 samples.

Results

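The core clock genes of Drosophila melanogaster and lark, which encodes the precipitated protein, were followed in RNA that came down with LARK from brain lysates. All probe sets annotated to lark, per, tim, cyc, Clk, dco, cry, vri or Pdp1 were taken, which gave 11 probe sets for 9 genes, out of 14010 probe sets on the array. The gene tim had 3 probe sets and each other gene 1. The source was the brain of wild-type flies (Canton-S) at the pharate adult stage, just before the adult leaves the pupal case, dissected during the day, with about 1000 brains pooled per experiment. From each pool, the RNA that came down with a purified antibody to LARK after mild washing is called LARK IP, and RNA taken from the unprecipitated lysate is called total RNA. There were 2 experiments, hence 2 LARK IP arrays and 2 total RNA arrays. A precipitate made without the antibody was not analysed here, and by the study's methods the mild washing left most RNA species of the lysate in the IP.

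The fly clock is a transcriptional feedback loop. The activators CLK and CYC bind as a pair and switch on per and tim, whose proteins return to the nucleus and repress that pair, and a second loop through VRI and PDP1 sets the rhythm of Clk itself. The kinase encoded by dco (discs overgrown, also named doubletime) phosphorylates PER and so times its turnover, and the blue-light receptor CRY leads to the loss of TIM in light. LARK is an RNA-binding protein with RNA recognition motifs and a retroviral-type zinc finger, known for its role in the daily timing of eclosion downstream of the clock.

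A signal is the scaled MAS5 intensity of a probe set. It was called at background when it was at or below 10.78, the 95th percentile over all 4 arrays of 42 probe sets of genes that a brain should not use (eggshell, yolk, male accessory gland, testis, glue and related genes). The arrays were alike in overall signal, with medians of 2.7 to 2.8 and 12.3% to 12.8% of probe sets above background. On every array the probe set at the 3′ end of the control transcript eIF-4a read 338.3 to 511.7 and the one at its 5′ end 7.1 to 9.6, so the 5′ part of this transcript lay at background. Neuronal markers were low: of 7 with a probe set (elav, nSyb, brp, fne, Rbp9, futsch and para), 5 were above background on at least 1 array, and brp and para on none. In total RNA 1 all of them were at background, the highest being futsch at 10.6. The markers elav and nSyb passed only in LARK IP 2, at 12.7 and 10.8. Of 5 glial markers with a probe set 3 were above background on at least 1 array, repo among them.

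Most of the core clock was at background. Of the 11 probe sets, 1 was above background on all 4 arrays (dco), 1 on a single array (tim) and 9 on none, which leaves 7 of the 9 genes, lark included, at background throughout. Over the whole array 7.26% of probe sets were above background on all 4 arrays and 80.9% on none. In a lysate of whole brains, few expressing cells, little RNA per cell and a probe set that reads its transcript poorly cannot be told apart. Probe sets of a single gene could differ widely. For the neuronal marker futsch, 153032_at read 10.6 to 95.9 on the 4 arrays and 144381_at 0.3 to 0.7. At the lower background of 8.13, the 90th percentile of the same genes, cyc and cry also passed on 1 array each, and 7 probe sets passed on none.

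**Figure D1:**
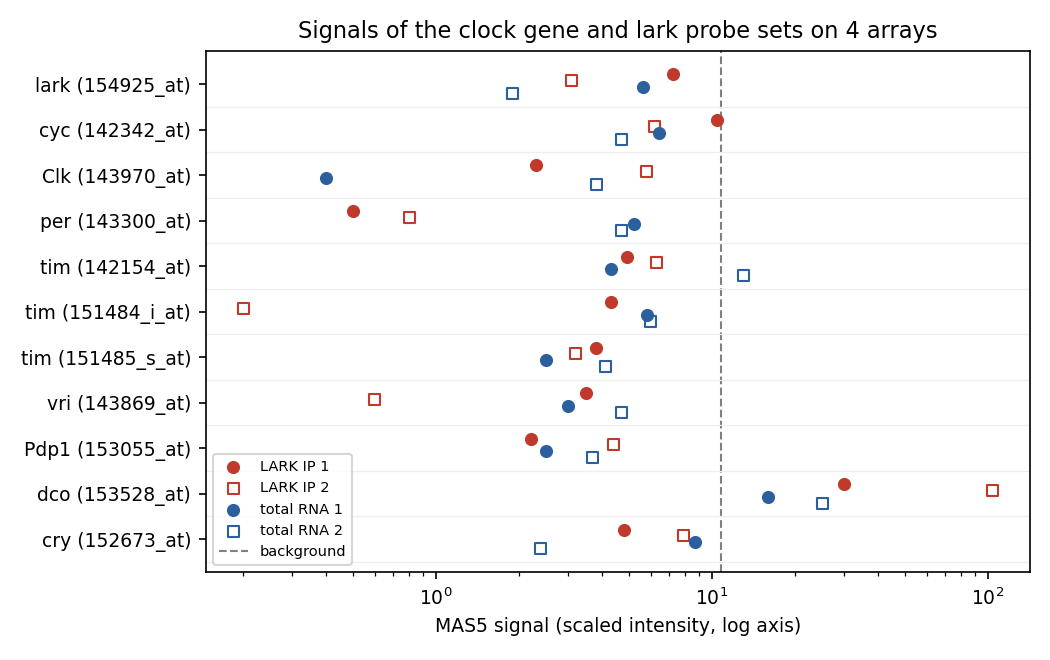
Scaled MAS5 signal (log axis) of the 11 probe sets on the 2 LARK IP arrays (red) and the 2 total RNA arrays (blue), with replicate 1 as filled circles and replicate 2 as open squares; the dashed line is the background of 10.78. Only dco lies to the right of the line on all 4 arrays, from 15.9 to 103.6, and a single total RNA signal of tim, 13.0, also passes it.

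The question for each gene was whether its transcript took a larger share of the RNA in LARK IP than in total RNA of the same lysate. Of the clock kinase dco (CG2048) the signals were 30.1 and 103.6 in LARK IP 1 and 2, against 15.9 and 25.1 in total RNA 1 and 2. Both IP signals lay above both total RNA signals, so the groups did not overlap, as was true in this direction of 15.4% of the 3492 probe sets tested. The plain ratio of IP over total RNA was 1.89 in replicate 1 and 4.13 in replicate 2. On the scale of log2(signal + 0.8), which understates changes of low signals, the ratios were 0.89 and 2.01, with a mean of 1.45 ± 0.79 (SD, n = 2), a 2.73-fold enrichment. In limma with the replicate number as a block dco rose, with a 95% interval of the log2 ratio from 0.74 to 2.16 (adjusted p = 0.047).

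This made dco 1 of 94 probe sets called higher in LARK IP, 2.69% of those tested, and it stood near the lower edge of them (6 probe sets, 0.172%, were called lower). By unadjusted p it ranked 88 of the 94, and by ratio 74, below their median log2 ratio of 1.84. The call was lost without the replicate block (log2 ratio 1.45, adjusted p = 0.95 in limma), where 0 probe sets of any gene were called higher. The size moved with either IP array: in fits that carry no block, the log2 ratio was 0.57 without LARK IP 2 and 2.33 without LARK IP 1, and neither passed in limma (adjusted p = 1.0 and 0.963).

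The abundance of dco differed between the experiments as well as between the groups. Replicate 2 was 3.44-fold above replicate 1 in LARK IP and 1.58-fold above it in total RNA. Among the 1014 probe sets above background on all 4 arrays the IP arrays differed by a median of 1.38-fold, and 1.87% of them differed by at least as much as dco, whereas for the total RNA arrays the median was 1.4-fold and 36.8% differed by at least as much. The 2 log2 ratios of dco were 1.12 apart, against a median of 0.54 over the tested probe sets, 21.3% of which were farther apart. The IP and total RNA arrays of a replicate went through the same fluidics session and the 2 replicates through different ones, so the session and the experiment cannot be told apart. Signals of 18S ribosomal RNA were also higher in replicate 2 (1265.4 in IP and 1006.5 in total RNA) than in replicate 1 (502.7 and 393.8), and their part in the result was not tested.

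Neuronal markers did not all lean one way. The summed signal of the listed neuronal probe sets was 105.8 and 171.3 in LARK IP against 38.1 and 111.5 in total RNA, higher in IP within each replicate. The largest part of each sum was a single probe set of futsch, 153032_at, at 45.3 and 95.9 in IP against 10.6 and 52.3. Of 5 neuronal markers tested 1 rose in limma (futsch, at a log2 ratio of 1.44) and 0 fell, with a median log2 ratio of 1.26. The tested probe set of Rbp9 had log2 ratios of -0.17 and -0.77, and nSyb had -0.24 and 2.40. The part of these transcripts in the ratio of dco was not tested. Glial markers had summed signals of 99.0 and 75.7 in IP against 96.7 and 67.9, with a median log2 ratio of 0.05 over the 3 tested. Photoreceptor markers summed to 98.0 and 160.3 in IP and to 131.5 and 240.4 in total RNA, lower in IP within each replicate. Of the 5 photoreceptor markers tested 0 rose and 0 fell in limma, with a median log2 ratio of -0.48. The markers of fat body, muscle and haemocytes summed to 15.5 to 52.9 on the 4 arrays.

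A further probe set is given to dco in the study's list of targets, while the platform annotation names no gene for it, so it was not counted as a member and the study chose it on these samples. Its signals were 6.6 and 8.0 in LARK IP against 0.2 and 0.4 in total RNA. The groups did not overlap, as for 14.7% of all probe sets in this direction, yet all 4 signals lay below the background used here, so no ratio is given. The study instead required a detection call of present on the IP array, a different measure that was not used here.

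**Figure D2:**
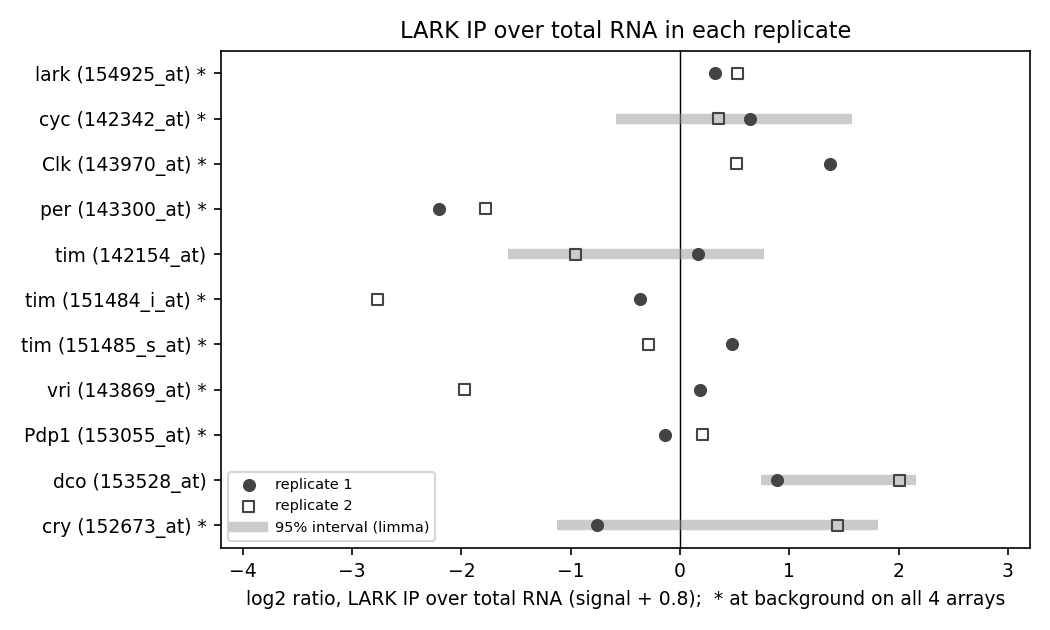
Log2 ratio of LARK IP over total RNA, computed on signal + 0.8, for each probe set in replicate 1 (filled circles) and replicate 2 (open squares); grey bars are 95% intervals of the mean from limma, drawn for the 4 tested probe sets, and asterisks mark probe sets at background on all 4 arrays. The interval of dco, 0.74 to 2.16, alone excludes 0, and those of tim, cyc and cry span it.

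Of the activators, cyc (CG8727) was bright enough to be tested and Clk was not. Its signals were 10.4 and 6.2 in LARK IP against 6.4 and 4.7 in total RNA, higher in IP within each replicate, though the groups overlapped and all 4 signals were at background, so no fold is given. The fitted log2 ratios of 0.64 and 0.35 gave a mean of 0.49 ± 0.20 (SD, n = 2), which did not pass (limma, adjusted p = 0.765, 95% interval from -0.59 to 1.57). Its partner Clk (CG7391) read 2.3 and 5.8 in IP, beside 0.4 and 3.8 in total RNA. Replicate 2 read above replicate 1 in both groups, the groups overlapped, and all 4 signals were at background, so no fold is given.

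The repressors gave no enrichment that could be read. The signals of per (CG2647), whose protein is the repressor that closes the loop, were 0.5 and 0.8 in LARK IP against 5.2 and 4.7 in total RNA. Both IP signals lay below both total RNA signals, as for 16.5% of all probe sets (17.4% of the tested ones), but all 4 were under background and no fold is given. When all 13966 probe sets were fitted, which called 0.695% higher and 0.0358% lower in IP, per had a log2 ratio of -1.99 (95% interval from -4.05 to 0.06; limma, adjusted p = 0.853). A depletion of per was therefore not detectable at these signals, and the interval spans a wide range on the side of depletion.

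For tim (CG3234), the partner of PER, the 3 probe sets did not give the same picture. The brightest, 142154_at, read 4.9 and 6.3 in LARK IP against 4.3 and 13.0 in total RNA, and only the last of these passed background, so that IP was at least 1.21-fold lower in replicate 2. Its log2 ratios were 0.16 and -0.96, of opposite sign, with a mean of -0.40 ± 0.79 (SD, n = 2; limma, adjusted p = 0.829, 95% interval from -1.57 to 0.77). Without total RNA 2, the array with the signal of 13.0, the log2 ratio was 0.32. The transcript of tim was thus placed on either side of 0 by a single array.

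The other probe sets of tim were at background throughout. The probe set 151484_i_at had 4.3 and 0.2 in IP, beside 5.8 and 6.0 in total RNA, and 151485_s_at had 3.8 and 3.2 against 2.5 and 4.1. The first was lower in IP in both replicates and the other was higher in replicate 1 and lower in replicate 2. In the array's naming, _i_at marks a set with fewer probes than usual.

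In the second loop, vri (CG14029), a basic leucine zipper repressor of Clk, read 3.5 and 0.6 in LARK IP against 3.0 and 4.7 in total RNA. Pdp1 (CG17888), the activator that competes with it, read 2.2 and 4.4 against 2.5 and 3.7. Both were at background on all 4 arrays with overlapping groups. The log2 ratios of vri were 0.18 and -1.97 and those of Pdp1 were -0.14 and 0.21, and in the fit of all probe sets neither passed (limma, adjusted p = 0.9 and 1.0).

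The photoreceptor cry (CG3772) read 4.8 and 7.9 in LARK IP against 8.7 and 2.4 in total RNA, all at background. Replicate 1 put IP lower and replicate 2 put it higher, with log2 ratios of -0.76 and 1.44, which were 2.21 apart. The mean of 0.34 ± 1.56 (SD, n = 2) did not pass (limma, adjusted p = 0.913, 95% interval from -1.13 to 1.81), and without total RNA 2 it was -0.44.

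The transcript of lark (CG8597) itself read 7.2 and 3.1 in LARK IP against 5.6 and 1.9 in total RNA. It was higher in IP within each replicate by a log2 ratio of 0.32 and 0.53, but all 4 signals were at background and the groups overlapped. Replicate 1 was above replicate 2 in both groups, the reverse of dco. With a mean log2 signal of 2.27 lark lay below the dimmest tested probe set, at 2.57, and in the fit of all probe sets it had a 95% interval from -1.06 to 1.91 (limma, adjusted p = 0.948). An association of LARK with its own transcript was not detectable at these signals.

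Read together, 4 of the 9 genes had a probe set that passed the filter on dim signals (dco, cyc, tim and cry), and the other 7 probe sets were too dim. Of these 4 genes 1 rose and 0 fell in limma, and none had an unadjusted p under 0.05 on the lower side; over the 2884 genes tested, with the brightest probe set of each, 2.6% rose and 0.173% fell. The median log2 ratio of the 4 was 0.42, against -0.04 over all tested probe sets. It lay between the values of cry (0.34) and cyc (0.49), both at background on all 4 arrays, so it shows no lean of the clock genes. The study had already named dco as a LARK target from these immunoprecipitations. At the cutoff of 2-fold in a single experiment, the dim side was raised to background. A probe set could therefore reach it only with its higher signal above background. For IP over total RNA only dco of the 11 probe sets could, and it reached the cutoff in replicate 2 but not in replicate 1. Among probe sets whose IP signal was above background 6.65% and 7.98% reached this cutoff in replicates 1 and 2. The probe set of dco did not reach it in both replicates, as 5.31% of probe sets with both IP signals above background did. In the other direction only dco, and tim (142154_at) in replicate 2, had total RNA above background. Neither reached the cutoff, beside 3.17% and 1.91% of probe sets with total RNA above background in replicates 1 and 2, and 0.458% in both.

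**Figure D3:**
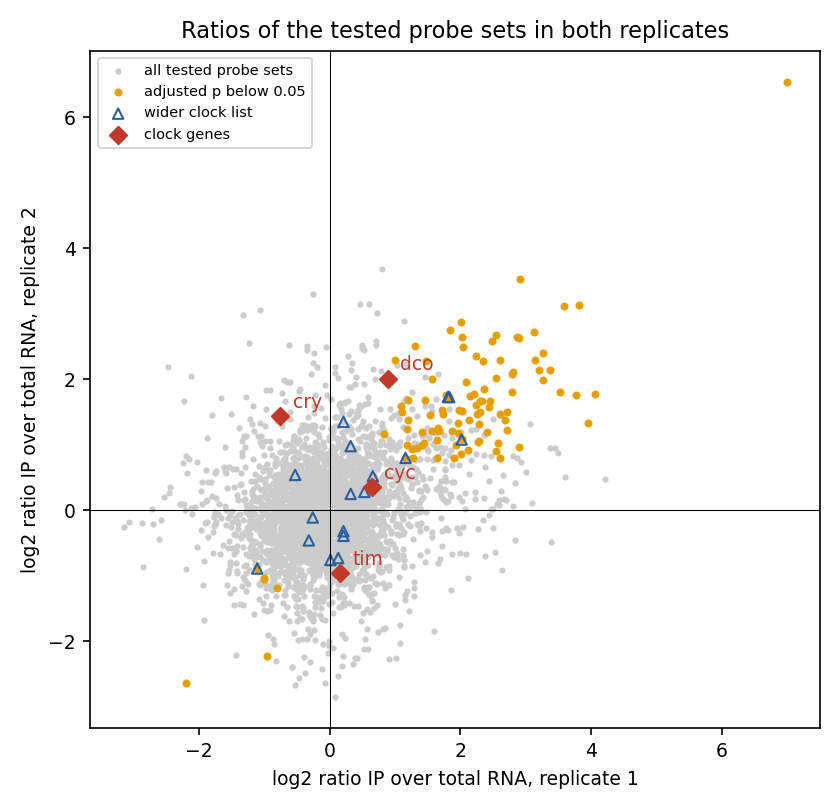
Log2 ratio of LARK IP over total RNA in replicate 1 (x axis) against replicate 2 (y axis) for the 3492 tested probe sets (grey), with those past an adjusted p of 0.05 in orange, the wider clock list as blue triangles and the 4 tested clock genes as red diamonds. The probe set of dco sits among the called ones at 0.89 and 2.01, while cyc, tim and cry lie in the grey cloud.

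The tested probe sets whose signals followed a course most like that of dco over the 4 arrays were emb, GluClalpha and CG6191. The distance between log2 signals centred on their mean was 0.33, 0.38 and 0.40 for them. The exportin emb read 83.1 and 236.6 in LARK IP against 35.6 and 73.1 in total RNA, also highest in IP 2 and lowest in total RNA 1. Those most like lark were Trxr1, ND-B14 and Sem1, at distances of 0.10, 0.12 and 0.16. Thioredoxin reductase Trxr1 read 30.8 and 16.1 in IP, beside 26.0 and 10.5 in total RNA, above background on all arrays but total RNA 2 and, like lark, higher in replicate 1 of both groups. With 4 arrays many probe sets can share such a course.

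Other genes of the clock pathway were taken from a list of 45 genes in 5 roles, of which 36 had a probe set and 16 were bright enough to be tested. Of the 16, 4 rose and 1 fell in limma, beside the 2.6% and 0.173% of all genes, and the median log2 ratio of the 16 was 0.15. Those that rose include rut, counted through a probe set with probes shared within a gene family, so its gene is uncertain. The study had already named dnc and flw as LARK targets from these immunoprecipitations, and the list was made with such results known. The count is therefore no independent measure of the clock pathway. Without the replicate block 0 of them passed (1 was higher at an unadjusted p under 0.05), and with quantile normalization 0 passed as well (4 were higher at an unadjusted p under 0.05). Over all tested probe sets 94 were called higher in the main fit, against 0 without the block and 12 with quantile normalization. All p-values here rest on 2 lysates, with a spread largely borrowed from other probe sets.

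Of the 9 listed kinases and phosphatases that act on PER and TIM, 4 had a probe set, all of them phosphatase subunits. No kinase on this list had one. Of the 3 genes tested, 1 rose. This was flw (CG2096), a catalytic subunit of protein phosphatase 1, whose brighter probe set read 169.8 and 329.3 in LARK IP against 41.2 and 155.2 in total RNA. Its log2 ratios were 2.02 and 1.08 (adjusted p = 0.0172), while the dimmer probe set had 0.21 and 1.35 and did not pass (adjusted p = 0.538). Unlike dco, the brighter probe set had its larger ratio in replicate 1. The other catalytic subunit listed, Pp1-87B (CG5650), read 73.0 and 63.2 against 58.2 and 53.0, with a log2 ratio of 0.29 ± 0.05 that did not pass (adjusted p = 0.677), and tws (CG6235), a regulatory subunit of protein phosphatase 2A, had 0.65 ± 0.47 with all signals at background.

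Of the turnover genes, 2 of 8 were tested and 0 changed. The cullin Cul1 (CG1877), scaffold of the ligase that takes PER for degradation, had signals of 16.3 and 15.1 in LARK IP and of 20.6 and 21.0 in total RNA, which is -0.39 ± 0.09 on the log2 scale (adjusted p = 0.68). Its RING partner Roc1a (CG16982) had 0.40 ± 0.17 (adjusted p = 0.577). The F-box protein gene slmb and the light response gene jet were too dim to be tested. Among the further transcriptional regulators brm (CG5942), a chromatin remodelling ATPase, was the single tested gene, at -0.18 ± 0.11 (limma, adjusted p = 0.93). Only its signal in total RNA 1, 11.4, was above background.

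Of 4 tested post-transcriptional factors 1 rose: NAT1 (CG3845), a relative of the initiation factor eIF4G, read 26.5 and 48.7 in LARK IP against 6.9 and 14.1 in total RNA. Its log2 ratios were 1.83 and 1.73 (adjusted p = 0.0172), but 6.9 was at background, so that IP was at least 2.46-fold higher in replicate 1 and 3.45-fold higher in replicate 2. The poly(A)-binding protein gene pAbp (CG5119) had 0.59 ± 0.10 without passing (limma, adjusted p = 0.255) and a second probe set at background on all 4 arrays. The fitted ratios of me31B (CG4916), 0.01 ± 0.76, and Atx2 (CG5166), -0.06 ± 0.38, came from signals at background on all 4 arrays. Enrichment of these genes could therefore not be read. The per translation activator tyf read 0.3 to 0.5 on the 4 arrays and was not tested.

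Clock output genes moved in both directions. Of 6 tested, 2 rose and 1 fell. The cyclic AMP phosphodiesterase gene dnc (CG32498) read 17.4 and 93.3 in LARK IP against 4.4 and 27.5 in total RNA, which gave log2 ratios of 1.81 and 1.73 (adjusted p = 0.0153); the groups overlapped because replicate 2 was higher in both, and 4.4 was at background, so that IP was at least 1.61-fold higher in replicate 1. The other probe sets of dnc were at background on all 4 arrays, with mean log2 ratios from -0.53 to 0.64 that lay on both sides of 0. The probe set of the adenylyl cyclase gene rut (CG9533), at 0.98 ± 0.25 (adjusted p = 0.047), carries the suffix _f_at, which marks probes shared within a gene family, and a second probe set of rut read 0.9 to 1.8 on the 4 arrays, so the gene behind this signal is uncertain.

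The gene that fell was unc79 (CG5237), needed for the leak current that sets the excitability of clock neurons, with 57.3 and 108.1 in LARK IP against 124.9 and 201.0 in total RNA; its log2 ratios were -1.11 and -0.89 (adjusted p = 0.0427). Of the peptide genes of clock and eclosion neurons, Pdf and Eh were tested and did not pass. The peptide genes CCAP and sNPF were too dim to be tested. Pdf (CG6496), the transmitter of clock neurons, read 13.0 and 7.4 against 11.8 and 12.8, a log2 ratio of -0.30 ± 0.61 (adjusted p = 0.835), and the eclosion hormone gene Eh (CG5400) read 23.1 and 10.4 against 19.9 and 13.9, at -0.09 ± 0.42 (adjusted p = 0.964). In replicate 1 IP was 1.1-fold higher for Pdf and 1.16-fold higher for Eh. In replicate 2 their IP signals, 7.4 and 10.4, were at background, so that IP was at least 1.19-fold and 1.29-fold lower. The remaining tested gene, e (CG3331), had -0.37 ± 0.55 (adjusted p = 0.748).

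**Figure D4:**
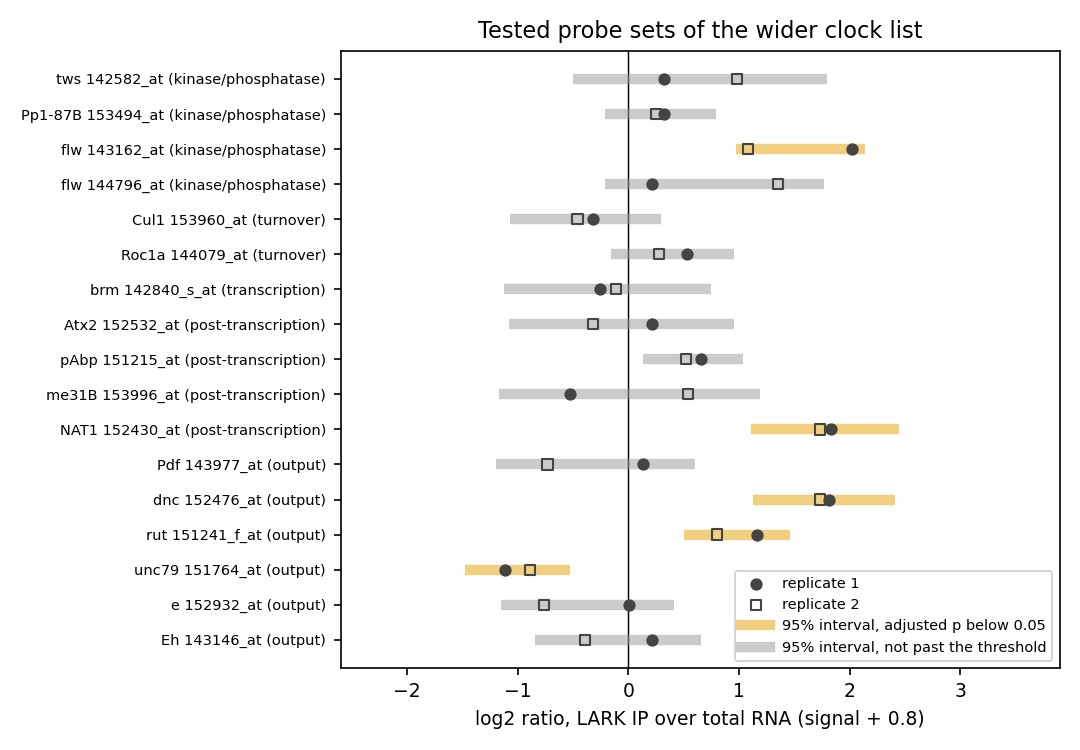
Log2 ratio of LARK IP over total RNA, on signal + 0.8, for the tested probe sets of the wider clock list, in replicate 1 (filled circles) and replicate 2 (open squares), with 95% intervals from limma in orange where the adjusted p was below 0.05 and in grey elsewhere. The brighter probe set of flw, NAT1, dnc and rut lie to the right of 0 and unc79 to the left, and the second probe set of flw spans 0.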

How the data were processed

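RNA from 2 LARK IP and 2 total RNA samples was hybridised to Affymetrix DrosGenome1 arrays, 1 per sample. The deposited values are signal intensities that the authors computed with MAS5 and scaled to a common target intensity on each array (2% trimmed mean 5.0 on all 4), so they show a transcript's share of the RNA hybridised. About the same amount of RNA was labelled for each array. Detection calls were not used here. The table held 14010 probe sets, 44 of them controls. GEO's annotation of the array named a single gene for 12442 probe sets, several for 327 and no gene for 1197, and no gene was named from several. Gene identifiers of all 11 member probe sets matched RefSeq (Release 6).

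Log2(signal + 0.8) was fitted with limma 3.58.1 (R 4.3.3; lmFit, eBayes with a variance trend, replicate as a block) over the 3492 probe sets in the top 25% by mean log2 signal, with Benjamini-Hochberg adjustment at 0.05. The pseudocount is the median 25th percentile signal. Same-numbered arrays share a lysate, per the series description, and across tested probe sets their replicate differences correlated (Pearson's r 0.36, across probe sets). With 1 residual degree of freedom (prior 7.84) the spread is largely borrowed from other probe sets. An exact permutation test of 2 arrays against 2 cannot go below p = 0.33, two-sided. The number of arrays limits the precision. The fit was tested on simulated data. For a gene with several probe sets the one with the highest mean signal was counted. Alternatives were no block, other pseudocounts, filters, quantile normalization, no trend, leaving out each array, and other backgrounds. Of 56 background genes listed, 42 had a probe set.

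The members and lists were chosen with earlier results of these data known. All member probe sets are named; of the wider list, genes past the threshold and the 2 highest and 2 lowest tested ratios per role, and of genes most like dco and lark the 3 nearest; slmb, jet, tyf, the markers and the unannotated dco probe set were added after their values were seen.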

Additional observations from a re-analysis of the deposited data

How the results depend on the processing

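The ratio of dco kept its direction under all 11 alternatives, and its call in limma under 3 of them: no pseudocount (log2 ratio 1.48, adjusted p = 0.0465), 4 times the pseudocount (1.36) and no filter (1.45). The call was lost with no replicate block (1.45, adjusted p = 0.95), with the top 15% filter (1.45, adjusted p = 0.0739), with quantile normalization (1.30, adjusted p = 0.12) and with no variance trend (1.45, adjusted p = 0.374), and on leaving out any 1 array, a fit that carries no block (0.57 to 2.33). The count of clock genes that rose was then 0 in each of these settings with all 4 arrays. Of the wider list, 0 rose and 0 fell without the block, with quantile normalization and without the trend, and 0 fell with the top 15% filter. Over all tested probe sets, 94 were called higher in the main fit, 0 without the block and 1 without the trend. With quantile normalization 12 were called higher, and with the top 15% filter 63. Leaving out 1 array at a time gave -1.12 to 0.32 for tim and -0.44 to 1.13 for cry, each turned in sign without total RNA 2. The other alternatives turned the sign of no tested clock gene. Counts of clock probe sets past 2-fold were the same under the other backgrounds and quantile normalization. With 2 arrays per group and 9 of 11 probe sets at background, enrichment or depletion of these 9 could not be resolved.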
